A study of Mus musculus with 9 samples.

Results

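Olig1, Olig2, Olig3, Bhlhe22 and Bhlhe23, 5 related genes out of the 50764 in a mouse count table, were followed through every library of an experiment in which Olig2 or Olig3 was delivered to retinal ganglion cells. They were taken by gene symbol. Ganglion cells send the axons of the optic nerve. All 3 groups (GFP, Olig2 and Olig3, 3 libraries each) came from adult male mice of genotype WT and differed in the adeno-associated virus (AAV2, 1.5 µL into the vitreous) that the eye received: AAV-GFP, which codes for green fluorescent protein, AAV-Olig2 or AAV-Olig3. The virus had been present for 14 days and the optic nerve had been crushed (ONC) for 14 days in every group, so no uninjured or uninfected eye is among the groups. Each library was made from a small pool of cells, 10 to 15 or 15 to 20 depending on the passage of the labels, which were bound to beads against CD90.2 (Thy1) and then picked by hand for GFP fluorescence. The vectors' promoter and insert and the strain of the mice are not stated in the labels. Nor is it said whether libraries of 1 group come from different animals; p-values here then reflect how much the libraries vary, and that variation may be technical. The series title writes the virus as AAV-Olig1/2; the sample labels, Olig2 and Olig3, are followed here.

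All 5 genes code for basic helix-loop-helix (bHLH) transcription factors. In such proteins a basic stretch contacts DNA at E-box sites and the helix-loop-helix joins the factor to a partner, often a broadly expressed E protein, while Id proteins lack the basic stretch and sequester those partners. Olig1 and Olig2 lie side by side in the genome and are best known for making oligodendrocytes and, for Olig2, motor neurons, whereas Olig3 patterns progenitors of the dorsal spinal cord and hindbrain. Bhlhe22 (also Bhlhb5) and Bhlhe23 (also Bhlhb4) are the closest relatives of the Olig factors and act in the retina itself: Bhlhe22 is needed for subsets of amacrine and OFF cone bipolar cells, and Bhlhe23 for the maturation and survival of rod bipolar cells.

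The likeness of the 5 genes is shown by the coding stretch of the bHLH domain, since it also sets how far short reads could be exchanged between them. The stretches were read from GENCODE M21 transcripts (build mm10) and are printed 5′ to 3′ on the coding strand, with capitals at the 105 aligned bases that are the same in all 5 genes.
Olig1: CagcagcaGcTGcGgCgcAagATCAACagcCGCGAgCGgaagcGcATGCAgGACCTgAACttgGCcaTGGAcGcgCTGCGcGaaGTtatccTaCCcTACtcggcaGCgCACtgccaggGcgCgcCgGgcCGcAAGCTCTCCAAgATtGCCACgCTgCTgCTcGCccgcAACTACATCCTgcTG
Olig2: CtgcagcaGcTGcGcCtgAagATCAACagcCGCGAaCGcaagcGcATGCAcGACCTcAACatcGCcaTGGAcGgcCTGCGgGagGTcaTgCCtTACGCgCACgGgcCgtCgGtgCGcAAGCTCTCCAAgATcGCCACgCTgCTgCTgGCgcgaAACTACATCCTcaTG
Olig3: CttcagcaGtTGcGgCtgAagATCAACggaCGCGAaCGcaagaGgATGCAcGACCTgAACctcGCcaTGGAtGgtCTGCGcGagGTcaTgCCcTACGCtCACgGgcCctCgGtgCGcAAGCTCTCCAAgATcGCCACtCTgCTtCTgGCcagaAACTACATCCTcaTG
Bhlhe22: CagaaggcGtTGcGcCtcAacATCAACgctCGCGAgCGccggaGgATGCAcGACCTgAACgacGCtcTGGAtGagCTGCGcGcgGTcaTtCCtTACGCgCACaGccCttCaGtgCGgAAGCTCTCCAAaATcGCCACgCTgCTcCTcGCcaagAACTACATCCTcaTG
Bhlhe23: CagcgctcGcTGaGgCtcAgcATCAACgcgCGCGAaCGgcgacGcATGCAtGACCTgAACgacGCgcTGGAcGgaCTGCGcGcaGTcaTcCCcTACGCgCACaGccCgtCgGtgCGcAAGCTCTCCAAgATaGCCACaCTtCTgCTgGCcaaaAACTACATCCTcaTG
The stretch was 168 bases (56 codons) long in Olig2, Olig3, Bhlhe22 and Bhlhe23 and 183 bases (61 codons) in Olig1, whose additional 5 codons fall in the loop. It covered codons 106 to 161 of 323 in Olig2, 82 to 137 of 273 in Olig3, 92 to 152 of 260 in Olig1, 214 to 269 of 355 in Bhlhe22 and 96 to 151 of 223 in Bhlhe23. Olig2 and Olig3, the delivered genes, were the most alike of the 10 pairs, with 149 of 168 bases and 54 of 56 encoded residues the same. Bhlhe22 and Bhlhe23 shared 136 bases and 52 residues. Olig1 differed more from the other Olig genes, with 46 of 56 residues shared with Olig2 and 46 with Olig3, than Bhlhe22 did from Bhlhe23. Between the Olig and Bhlhe genes 38 to 44 residues were the same. Over the whole transcripts the longest run of identical bases was 29 for Olig2 and Olig3, 26 for Olig2 and Bhlhe23 and 12 to 23 for the other 8 pairs.

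Total counts per library ran from 5355691 to 6979851, and levels are given as CPM, the count relative to a library total scaled with TMM factors. A count of 0 allows up to 3 counts, which is 0.381 to 0.750 CPM depending on the library. With 20 cycles of amplification and no molecular identifiers, such limits cover counting error only. Ganglion cell markers were present but low: their 11 genes summed to 659.5 to 1346 unscaled CPM in the GFP libraries, 107 to 300.4 in the Olig2 libraries and 63.8 to 254.5 in the Olig3 libraries, beside rod markers at 41709 to 133624 unscaled CPM. In such pools fewer cells of a type and less RNA per cell cannot be told apart. In the third Olig3 library 7 of the 11 ganglion cell markers, Rbpms, Pou4f1, Pou4f2, Thy1 and Slc17a6 among them, had no count. Olig3 libraries 1 and 3 had fewer genes with a count (16188 and 14434) than the remaining 7 (18184 to 21338). The noncoding RNA Malat1 took 6.15 to 11.7% of the counts in 3 libraries (Olig2 2, Olig2 3 and Olig3 2) and 2.65 to 4.14% elsewhere. Genes with a count in some libraries and none in others were common: 4416 of the 15609 genes tested (28.3%) had 0 counts in at least 1 library and 1162 (7.44%) in at least 3.

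Each delivered factor was read chiefly in its own group, Olig1 was at most at 1 count, and Olig3 was also read in some libraries that had not received it. Olig2 (ENSMUSG00000039830, chr16:91225457-91228677, plus strand, 2 exons) had 0 counts in all 3 GFP libraries. It had 114, 97 and 21 counts in the Olig2 libraries, which is 16.3, 23.1 and 3.77 CPM (14.4 ± 9.82, SD, n = 3). In the Olig3 libraries it had 6, 4 and 0 counts (0.628 ± 0.547 CPM, SD, n = 3). Every Olig2 library lay above every other library, and Olig2 library 3, with the fewest, was still above the limit that a count of 0 allows. Against a floor of 3 counts over the GFP group the level was at least 102-fold higher with AAV-Olig2. The edgeR quasi-likelihood test did not pass after Benjamini-Hochberg adjustment over all genes (log2 change 9.50, SE 2.05, adjusted p = 0.375), where the size of the fitted change depends on the prior count because the GFP group is at 0.

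Olig3 (ENSMUSG00000045591, chr10:19356533-19358604, plus strand, 1 exon) had 172, 113 and 597 counts in the Olig3 libraries, which is 25.4, 28.3 and 87.6 CPM (47.1 ± 35.1, SD, n = 3). It was also read without its virus, with 13, 0 and 40 counts in the GFP libraries (2.43 ± 2.71 CPM) and 0, 5 and 7 in the Olig2 libraries (0.816 ± 0.707 CPM). The Olig3 libraries did not overlap the others, and Olig3 library 3, the library with the fewest detected genes, had more than 3 times the level of either of the other Olig3 libraries. The mean was 19.3-fold above the GFP group (edgeR log2 change 4.27, SE 1.31, adjusted p = 0.252). Set against the Olig2 group it was 57.7-fold higher (log2 change 5.88, SE 1.46, edgeR adjusted p = 0.618), and Olig2 was 22.9-fold lower in the Olig3 group than in the Olig2 group (log2 change -4.50, SE 1.55, edgeR adjusted p = 0.918). Without Olig3 library 3 the log2 change of Olig3 against GFP was 3.46 (edgeR adjusted p = 0.441), without both Olig3 libraries of few detected genes 3.54 (edgeR adjusted p = 0.952), and without GFP library 3, which held most of the Olig3 counts of that group, it was 5.60 (edgeR adjusted p = 0.361). Reads of a delivered copy and of the cells' own gene are not separated in gene counts.

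The 10 Olig2 counts in the Olig3 libraries came beside 882 counts of Olig3 there, and the 12 Olig3 counts in the Olig2 libraries beside 232 counts of Olig2. The GFP libraries had 53 Olig3 counts with none of Olig2. The pair shares 149 of 168 bases in the bHLH stretch, and the longest identical run of their transcripts is 29 bases. Whether reads were exchanged between the pair was not tested. For Olig2 in the Olig3 group against GFP, the ratio over the floor was at least 4.17-fold higher (edgeR log2 change 4.99, SE 1.84, adjusted p = 0.331), with 1 Olig3 library at 0 like all GFP libraries.

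Olig1 (ENSMUSG00000046160, chr16:91269772-91271933, plus strand, 1 exon), the neighbour of Olig2 at a distance of 41.1 kb, was not read beyond single counts. A single count fell in each of 2 libraries (the second of the Olig2 and of the Olig3 group), the remaining 7 had none, and it did not reach the minimum for testing. In the 7 libraries without a count its level was thus within the limit that a count of 0 allows. The 0.238 and 0.250 CPM measured in the other 2 also lay below that limit, although a count of 1 allows a higher level. Olig1 had at most 1 count also where Olig2 had 21 to 114. Within 100 kb of Olig1 or Olig2 the only other annotated gene with a count was Gm15966, which overlaps Olig1 by 157 bases and had 17 counts in GFP library 3 alone. Near Olig3, Gm33056 (30.7 kb away) had 0, 16 and 33 counts in the GFP libraries, 8, 6 and 8 in the Olig2 libraries and 0, 3 and 0 in the Olig3 libraries. Neither Gm15966 nor Gm33056 was thus highest in the group that received the neighbouring factor.

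**Figure D1:**
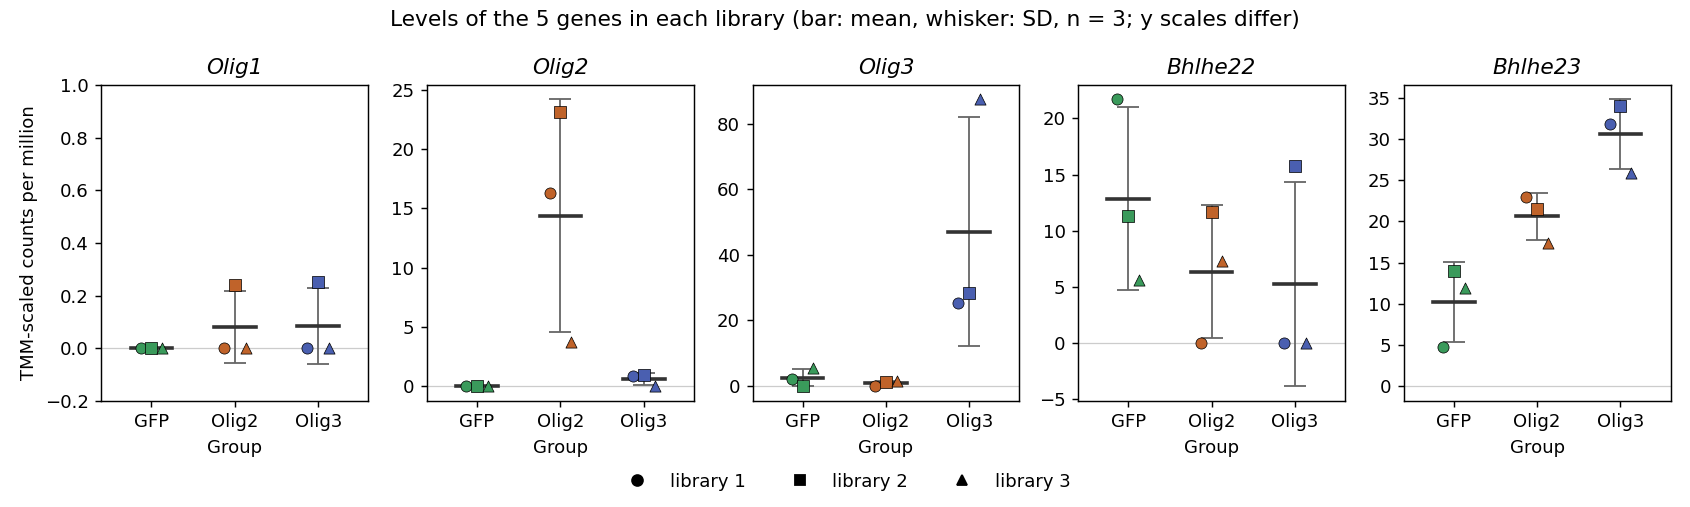
TMM-scaled CPM (linear y axes, each with its own range) of the 5 genes in the 9 libraries, by group on the x axis; points are libraries, with 1 shape per replicate number, and bars are the mean and SD of 3. Olig2 and Olig3 are high in their own groups, Olig1 has at most 1 count in a library, Bhlhe22 is at 0 in 3 libraries, and Bhlhe23 reads 4.79 to 14.0 CPM with GFP, 17.4 to 23.0 with Olig2 and 25.8 to 34.0 with Olig3.

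Bhlhe23 (ENSMUSG00000045493, chr2:180774381-180776900, minus strand, 1 exon) was the member with the most even values, and it stood lowest with GFP and highest with Olig3. It had 32, 110 and 89 counts in the GFP libraries (4.79, 14.0 and 11.9 CPM), 161, 90 and 97 in the Olig2 libraries (23.0, 21.5 and 17.4 CPM) and 216, 136 and 176 in the Olig3 libraries (31.9, 34.0 and 25.8 CPM). No library of one group overlapped those of another: the highest GFP library lay below the lowest Olig2 library, and the highest Olig2 library below the lowest Olig3 library. The same order without overlap was found in 71 of the 15609 genes tested (0.455%). Means were 10.2 ± 4.82, 20.6 ± 2.88 and 30.6 ± 4.25 CPM (SD, n = 3 each), a ratio of 2.02 for Olig2 over GFP and of 2.99 for Olig3 over GFP.

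None of these differences passed the edgeR test. The log2 change of Bhlhe23 was 1.01 with Olig2 (SE 0.508, 95% interval -0.10 to 2.12, adjusted p = 1.00) and 1.58 with Olig3 (SE 0.514, 95% interval 0.45 to 2.70, adjusted p = 0.268), and both comparisons use the same GFP libraries. Between the factors it was 0.57 (SE 0.503, 95% interval -0.53 to 1.67, edgeR adjusted p = 0.934). The separation of Olig2 from GFP depends on the scaling: it held with TMM, RLE and upper quartile factors, while on library totals without factors the Olig2 libraries read 25.1, 16.6 and 14.3 CPM and the GFP libraries 5.47, 15.8 and 14.1. The Olig3 libraries, at 33.5, 25.4 and 29.8 on that scale, lay above all GFP libraries with each of these scalings. Without GFP library 1, the lowest, the log2 change with Olig2 was 0.68. Without the 3 libraries richest in Malat1 the changes were 1.17 with Olig2 and 1.48 with Olig3, and without Olig3 libraries 1 and 3 the change with Olig3 was 1.74 (edgeR adjusted p = 0.660), each fit leaving 1 library in a group that is assumed to vary like the others.

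Other genes of rod bipolar cells, the retinal cell class in which Bhlhe23 acts, summed higher in the libraries given a factor, although few of them passed the test. Their 9 listed markers summed to 572.9 to 715.8 unscaled CPM in the GFP libraries, 876.3 to 1629.5 in the Olig2 libraries and 879.4 to 1535.8 in the Olig3 libraries. Pcp2, a G-protein modulator of these cells, had 71.1 ± 7.86 CPM with GFP, 276 ± 44.7 with Olig2 and 196 ± 20.1 with Olig3 (SD, n = 3) and rose in both comparisons (edgeR adjusted p = 0.0127 and 0.0363), although its gene lies within Pet100 and their reads are not separable. Grm6, the glutamate receptor by which they receive rod signals, was 26.2 ± 7.36 CPM with GFP and rose to 114 ± 36.0 with Olig3 (log2 change 2.12, SE 0.343, edgeR adjusted p = 0.0363). Cabp5, a calcium-binding protein of bipolar cells, was 62.1 ± 5.51 CPM with GFP and rose to 217 ± 76.3 with Olig3 (log2 change 1.80, SE 0.289, edgeR adjusted p = 0.0363). The median log2 change of the 9 markers was 0.97 with Olig2 and 1.20 with Olig3, beside 0.00 and -0.06 over all genes tested. Rod markers had medians of 1.20 and 1.12, so a rise of this size was not particular to the rod bipolar markers. Of the 9 markers, 1 passed with Olig2 and 3 with Olig3 in edgeR, none lower, beside 0.0513 and 0.205% of all genes. Among all listed genes, the count with Olig2 went from 2 to 0 without GFP library 1, GFP library 3 or Olig2 library 1, and the count with Olig3 from 4 to 0 without any 1 library other than Olig3 library 2, without which it was 10.

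Counted per 1000 counts of the 9 rod bipolar markers, a measure chosen after the values were seen, Bhlhe23 had 9.54, 22.0 and 20.1 in the GFP libraries, 15.4, 16.5 and 16.3 in the Olig2 libraries and 21.8, 28.9 and 20.5 in the Olig3 libraries. On this scale the Olig2 libraries lay within the range of the GFP libraries and the Olig3 libraries overlapped them, with means of 17.2 ± 6.73, 16.1 ± 0.585 and 23.7 ± 4.51 (SD, n = 3). Per 1000 counts of the rod markers, Bhlhe23 had means of 0.217 ± 0.0749, 0.211 ± 0.125 and 0.394 ± 0.189 (SD, n = 3), and the groups overlapped as well. Gm14343, which overlaps the Bhlhe23 gene by 1023 bases, had at most 5 counts in a library.

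Bhlhe22 (ENSMUSG00000025128, chr3:18054174-18057517, plus strand, 1 exon) was read in all GFP libraries and was at 0 in 3 of the 6 libraries given a factor. It had 145, 89 and 42 counts with GFP (21.7, 11.3 and 5.62 CPM), 0, 49 and 41 with Olig2 (0, 11.7 and 7.36 CPM) and 0, 63 and 0 with Olig3 (0, 15.8 and 0 CPM). Where it was read in a factor library it lay within the range of the GFP libraries. The means of 12.9 ± 8.15, 6.35 ± 5.91 and 5.25 ± 9.10 CPM (SD, n = 3) therefore join libraries at 0 with libraries at the GFP level, and the groups overlap. The log2 change was -1.02 with Olig2 (95% interval -5.12 to 3.07, edgeR adjusted p = 1.00) and -1.31 with Olig3 (95% interval -5.44 to 2.82, edgeR adjusted p = 0.822), intervals that include large changes either way. Without Olig3 library 2, the only library of its group with Bhlhe22, the log2 change against GFP was -9.40 (edgeR adjusted p = 0.0925), a size that depends on the prior count. It was -0.70 without GFP library 1, and it turned to 0.31 without Olig3 libraries 1 and 3. The 3 libraries without Bhlhe22 were those with the fewest genes detected (18184, 16188 and 14434), and the other 6 had 18425 to 21338.

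Markers of amacrine cells, a class that uses Bhlhe22, were read in each of those 3 libraries. Their 11 genes summed to 443.4 to 1145 unscaled CPM with GFP, 662.9 to 866.2 with Olig2 and 430.9 to 976.0 with Olig3, and the 3 libraries without Bhlhe22 held 866.2, 560.1 and 976.0. Gad1, which makes the transmitter GABA, had 1111, 331 and 713 counts there. Gad2 had 60, 187 and 0 counts in the same libraries, and Th also had none in Olig3 library 3. The largest amacrine counts of that library were those of Pax6, Tfap2b and Slc6a9 (1726, 1361 and 1343). Per 1000 counts of the amacrine markers, Bhlhe22 had 21.6, 21.5 and 15.0 with GFP, 13.6 and 8.83 in the Olig2 libraries with a count and 27.3 in Olig3 library 2. Per 1000 counts of the ganglion cell markers, which were fewer in the factor libraries, the same libraries read 18.4, 19.3 and 7.51 with GFP, 30.0 and 42.0 with Olig2 and 46.2 with Olig3, so that the order of GFP and Olig2 depends on the markers taken. Of the 5 markers of OFF cone bipolar cells, the other class that uses Bhlhe22, Neto1 had 143, 55 and 129 counts with GFP, 49, 30 and 10 with Olig2 and 1, 9 and 0 with Olig3 (log2 change with Olig3 -4.31, SE 1.45, edgeR adjusted p = 0.282; DESeq2 called it lower with Olig3). The other 4 overlapped between GFP and Olig3. Of these, Grik1 and Vsx1 had positive changes (0.59 and 0.85, edgeR adjusted p = 0.559 and 0.862) and Tacr3 and Syt2 negative ones. The median log2 change over the 5 was -0.19 with Olig2 and -2.05 with Olig3. The 5 summed to 119 to 168 unscaled CPM with GFP, 72.6 to 117 with Olig2 and 68.5 to 206 with Olig3, and 3 of them were at 0 in Olig3 library 3. Prdm8, a zinc finger protein that forms a repressor complex with Bhlhe22, was read in all 9 libraries, with 28.0 ± 2.73, 47.4 ± 6.46 and 50.9 ± 26.0 CPM (SD, n = 3). In the libraries at 0 Bhlhe22 it had 54.6, 77.1 and 25.1 CPM, which spans the range from the highest to the second lowest of all 9 (edgeR adjusted p = 1.00 with Olig2 and 0.403 with Olig3). The part of cell makeup in the values of Bhlhe22 and Bhlhe23 was not tested.

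**Figure D2:**
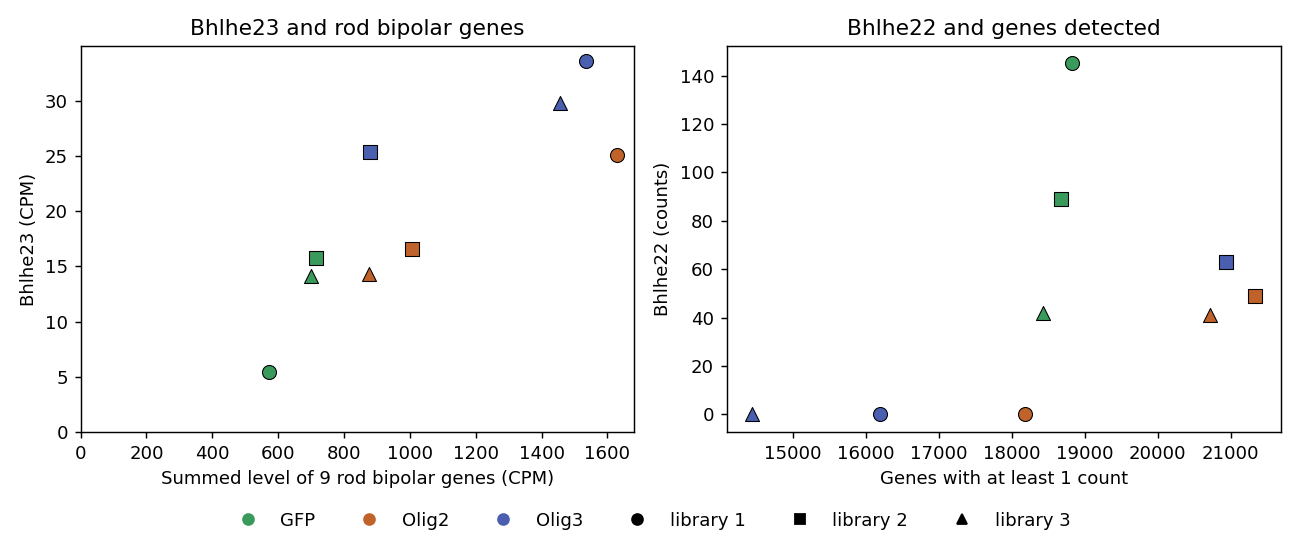
Each point is 1 library, coloured by group and shaped by replicate number. The left panel plots Bhlhe23 (y axis, unscaled CPM) against the summed level of 9 rod bipolar markers (x axis, unscaled CPM), and the right panel Bhlhe22 (y axis, counts) against the number of genes with a count (x axis); the GFP libraries hold the lowest sums of rod bipolar markers (572.9 to 715.8 unscaled CPM), and the 3 libraries at 0 Bhlhe22 have the fewest genes, 14434 to 18184.

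Over the members, none of the 4 genes tested passed an adjusted p of 0.05 in edgeR in any comparison, where 0.0513% of all genes passed for Olig2 against GFP, 0.205% for Olig3 against GFP and 0.0384% for Olig3 against Olig2. At an unadjusted p below 0.05 there were 1 (Olig2), 3 (Olig2, Olig3 and Bhlhe23) and 2 (Olig2 and Olig3), beside 4.68, 12.1 and 5.12% of all genes. DESeq2 and edgeR without a filter on low counts each called 1 member per comparison, Olig2 for Olig2 against GFP and Olig3 in the other comparisons, and limma-voom called 0. Of all genes, DESeq2 called 0.577, 3.22 and 0.525%, edgeR without the filter 0.598, 1.89 and 0.476% of a larger set, and limma-voom 0.0384, 0.500 and 0.00641%. Libraries of the groups did not overlap for Olig2 and Bhlhe23 in the first comparison, for Olig3 and Bhlhe23 in the second and for Olig2, Olig3 and Bhlhe23 in the third, beside 16.8, 17.2 and 13.1% of all genes. The delivered genes account for 4 of these 7 cases.

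**Figure D3:**
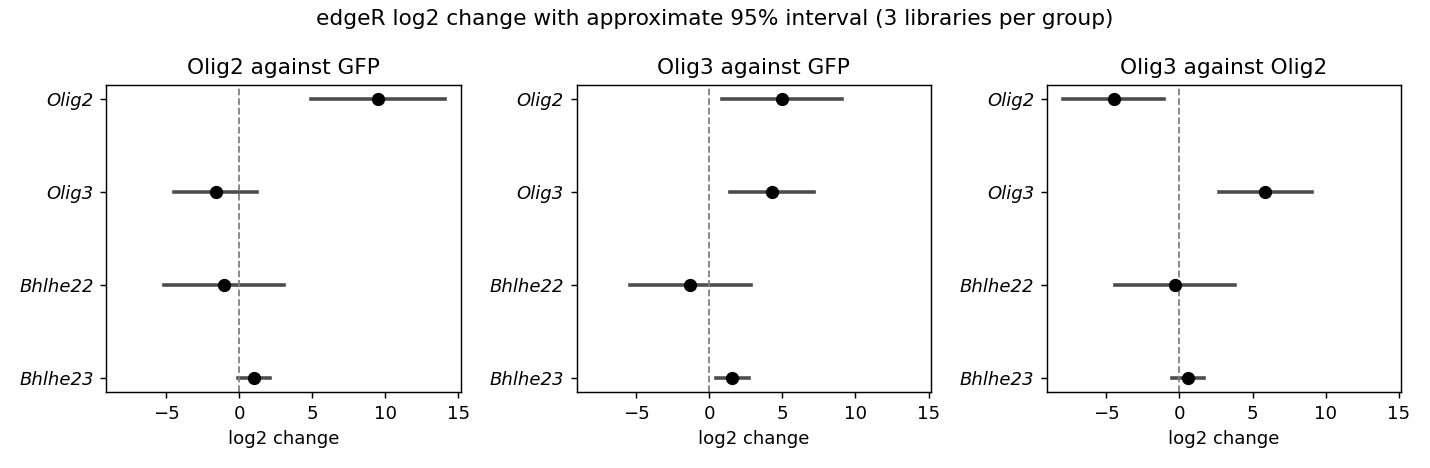
Fitted log2 changes (x axis) of the 4 tested genes in the 3 comparisons, with approximate 95% intervals from edgeR as bars. The interval of Bhlhe22 spans 0 in each comparison, that of Bhlhe23 lies above 0 only for Olig3 against GFP (0.45 to 2.70), and the values of Olig2 against the GFP group, which has 0 counts, depend on the prior count.

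Levels between genes were compared per kilobase of exons. In the GFP group Bhlhe23 (4.06 ± 1.91 CPM per kb) and Bhlhe22 (3.85 ± 2.44) did not differ beyond their spread, Olig3 followed at 1.17 ± 1.31, and Olig2 and Olig1 were at 0. In the Olig2 group Bhlhe23 came first (8.18 ± 1.14), before the delivered Olig2 (5.69 ± 3.88), whose spread reaches it, and then Bhlhe22 (1.90 ± 1.77) and Olig3 (0.394 ± 0.341). In the Olig3 group the delivered gene led at 22.7 ± 16.9, and Bhlhe23 (12.1 ± 1.69) lay within its spread, followed by Bhlhe22 (1.57 ± 2.72) and Olig2 (0.248 ± 0.216). Per kb, delivered Olig3 in each Olig3 library lay above delivered Olig2 in each Olig2 library; the difference between the genes was not tested. The insert of the vectors is not stated, and the place of a delivered gene depends on the length taken: over the coding sequence alone (972 and 822 nt), delivered Olig2 would be at 14.8 ± 10.1 and delivered Olig3 at 57.3 ± 42.7 CPM per kb, which puts the mean of Olig2 above that of Bhlhe23 in the Olig2 group.

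The E proteins, often the partners of such factors, were read in all libraries. In mixed pools these reads cannot be assigned to the cells that carry a factor. Tcf4 was the most abundant of the 3 E proteins, at 146 ± 35.2 CPM with GFP, 123 ± 48.1 with Olig2 and 202 ± 43.9 with Olig3 (SD, n = 3). Its log2 change was 0.71 for Olig3 against Olig2 (SE 0.316, edgeR adjusted p = 0.933), and the groups overlap. Tcf12 had 56.4 ± 10.3, 61.4 ± 23.3 and 63.9 ± 19.4 CPM, and Tcf3 10.3 ± 4.34, 13.8 ± 4.36 and 11.4 ± 1.03. Of the list of 10 partners and cofactors, 8 were tested and none passed in any comparison with edgeR, DESeq2 or limma-voom. At an unadjusted p below 0.05 edgeR gave 0, 1 (Prdm8, higher with Olig3) and 1 (Tcf4), and the median log2 changes were -0.12, 0.12 and 0.08. Sox10, the glial partner of Olig factors, had 0 counts in all 9 libraries, while the related Sox8 had 47, 133 and 98 counts with GFP, 37, 33 and 39 with Olig2 and 0, 46 and 1 with Olig3.

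Among the Id genes, whose proteins hold E proteins away from bHLH factors, Id3 was lower in both factor groups. It had 226, 422 and 558 counts in the GFP libraries (54.0 ± 20.5 CPM), 121, 37 and 51 in the Olig2 libraries (11.8 ± 4.78 CPM) and 98, 32 and 73 in the Olig3 libraries (11.1 ± 3.24 CPM), so that on the CPM scale every factor library lay below every GFP library. The log2 change was -2.20 with Olig2 (SE 0.492, edgeR adjusted p = 0.368) and -2.28 with Olig3 (SE 0.494, edgeR adjusted p = 0.105), neither past the threshold, while DESeq2 called Id3 lower in both comparisons and limma-voom in neither. Id3 is also a gene of glia. The 8 Müller glia markers summed to 2094 to 4252 unscaled CPM with GFP, 1822 to 2293 with Olig2 and 652 to 2357 with Olig3. Apoe had the most counts of the 8 in every library. Vim, an intermediate filament, fell with Olig3 from 347 ± 177 to 44.0 ± 21.8 CPM (edgeR adjusted p = 0.0363). Glul was higher with Olig2, at 196, 348 and 180 CPM beside 92.3, 108 and 108 with GFP. Of the 8 log2 changes, 6 were negative with Olig2 and 7 with Olig3. The part of glial RNA in the level of Id3 was not tested. Id2 and Id4 overlapped between the groups, and the median over the 3 Id genes tested was -0.55, -0.52 and -0.09. None of the 3 passed in any comparison with edgeR, where 1 was lower in each at an unadjusted p below 0.05, Id3 against GFP and Id2 between the factors.

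The proneural bHLH factors of the retina, which use the same partners, had positive log2 changes with Olig3 in 3 of the 4 genes tested, and none passed. Neurod4, a factor of bipolar and amacrine cell development, had 182, 161 and 84.6 CPM with GFP, 191, 135 and 153 with Olig2 and 351, 172 and 440 with Olig3 (log2 change with Olig3 1.17, SE 0.361, edgeR adjusted p = 0.254). Neurod2 had 6.08 ± 1.79 CPM with GFP, 8.87 ± 2.72 with Olig2 and 20.7 ± 8.87 with Olig3 (log2 change with Olig3 1.76, SE 0.680, edgeR adjusted p = 0.338), and its Olig3 libraries lay above all GFP libraries. Atoh7 had 0, 15 and 0 counts with GFP, 8, 0 and 17 with Olig2 and 44, 3 and 1 with Olig3, most of the latter in 1 library. Neurod1, a photoreceptor factor, had 714 ± 142, 739 ± 126 and 690 ± 95.5 CPM. Of the 8 factors listed 4 were tested and none passed in any comparison with edgeR, DESeq2 or limma-voom. At an unadjusted p below 0.05 edgeR gave 0, 2 and 1, and the medians were 0.35, 1.47 and 0.91. The more distant relatives Bhlhe40 and Bhlhe41, which repress transcription in the circadian clock and in stress responses, overlapped between all groups; Bhlhe40 had 69.2 ± 50.7, 42.7 ± 7.33 and 25.7 ± 16.3 CPM (log2 change with Olig3 -1.44, SE 0.661, edgeR adjusted p = 0.415).

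**Figure D4:**
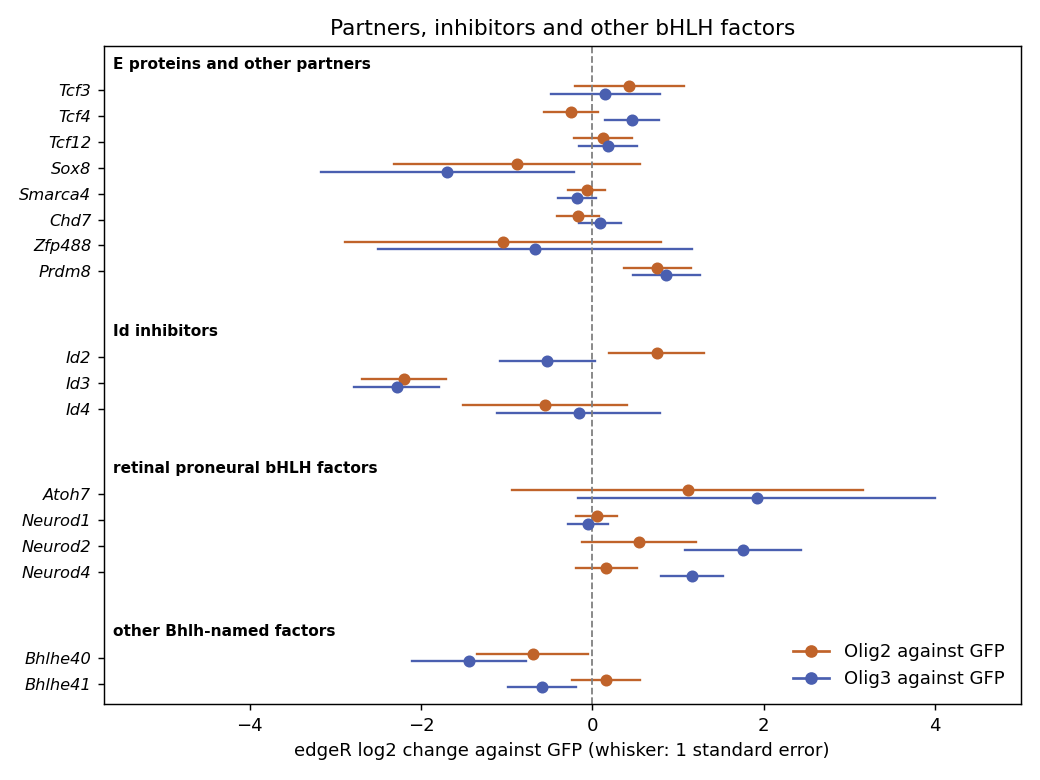
Fitted log2 changes (x axis) of tested genes of the bHLH network (y axis, by list) with Olig2 and with Olig3 against the shared GFP libraries; bars are 1 standard error from edgeR. None passes the adjusted threshold in edgeR, and Id3 lies lowest among the Id genes at -2.20 and -2.28.

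Genes of the oligodendrocyte lineage, the best-known setting of Olig1 and Olig2, did not pass in any comparison with edgeR, DESeq2 or limma-voom. Of 13 listed, 4 were tested, with 0 at an unadjusted p below 0.05 in edgeR and medians of 0.20, 0.70 and 0.29. Mbp, a myelin protein, had 429 counts in the third Olig3 library and 1 to 125 elsewhere. Cnp, an enzyme of myelin that other retinal cells express as well, overlapped between the groups with 103 ± 15.6, 85.4 ± 25.8 and 77.8 ± 23.2 CPM. Mobp and Cldn11 had no count in any library.

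The remaining markers were counted once for the makeup of the pools. Rod markers (10 tested) had medians of 1.20 with Olig2 and 1.12 with Olig3. None passed in edgeR, where 9 and 8 were higher at an unadjusted p below 0.05, and DESeq2 called 3 and 7. Ganglion cell markers (9 tested) had medians of -1.48 and -2.04. None passed in edgeR, where 3 were lower in each at an unadjusted p below 0.05, and DESeq2 called 0 and 1 (Nefl). Of 6 immune cell markers Jchain rose with Olig2, from 14.6 ± 8.39 to 212 ± 76.5 CPM (edgeR adjusted p = 0.0127). Summed lens markers ran from 50.4 to 2337 unscaled CPM with GFP, 0.553 to 1.33 with Olig2 and 0 to 192 with Olig3. Over all 13 lists, 2 of the 83 genes tested passed for Olig2 against GFP, 4 for Olig3 against GFP and 0 for Olig3 against Olig2.

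For each tested member, the genes with the most similar levels were found by Pearson correlation of log2 CPM over the 9 libraries among 12730 named genes; with so many candidates high values arise readily, and the values are a description. Bhlhe23 was most like Glb1l3 (r = 0.97, Spearman rho 0.93), Susd3 (0.96, 0.93) and Fam161a (0.96, 0.92). Glb1l3 had 0, 81 and 33 counts with GFP, 104, 56 and 101 with Olig2 and 307, 151 and 221 with Olig3. Bhlhe22 was most like Atg101 (0.98, 0.76), Grk5 (0.97, 0.84) and Hspb1 (0.97, 0.76). Grk5 and Hspb1 were at 0 counts in the same 3 libraries as Bhlhe22, Olig2 library 1 and Olig3 libraries 1 and 3. Olig2 was most like Haus1 (0.96, 0.96), Phf14 (0.95, 0.94) and Slpi (0.94, 0.80); Slpi had 1698, 784 and 36 counts in the Olig2 libraries and at most 2 in any other. Olig3 was most like Dusp7 (0.93, 0.90), Mterf1a (0.92, 0.88) and Hook3 (0.92, 0.90). Among the members themselves r ran from -0.52 (Bhlhe22 with Bhlhe23) to 0.41 (Olig3 with Bhlhe23). All these values share the libraries, their depth and their groups.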

How the data were processed

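Poly-A RNA of pooled picked cells was measured in 9 libraries. The deposited values are whole-number read counts per gene, not normalized, in 1 table of the whole series. The authors used FastQC, HISAT2 and HTSeq on mm10, per the submitters' processing notes; no version or strandedness of the counting is stated there, so overlapping genes cannot be told apart. Gene models and transcript sequences came from GENCODE M21. The 89 identifiers without a symbol were kept, and 0 value columns were left out.

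The test of the counts was edgeR's (4.0.16, R 4.3.3): TMM factors, filterByExpr (15609 genes), 1 model of group means over 9 libraries (6 residual degrees of freedom, common dispersion 0.532), quasi-likelihood F tests and Benjamini-Hochberg adjustment over all genes tested with a threshold of 0.05. The script was tested on simulated data. The SE is the log2 change over the root of F, and 95% intervals are approximate. Levels are TMM-scaled CPM unless called unscaled. Likeness used log2 CPM with a prior count of 2. Alternatives were RLE and upper quartile factors, library totals without factors (added after seeing the data), no filter beyond 1 count, 10 CPM in 3 libraries, DESeq2 1.42.0, limma-voom (limma 3.58.1), fits of the pair of groups alone, the replicate number as a block, and leaving out libraries. The closest pair of libraries in a group differed by 33.1 in chi-square per degree of freedom, so none was merged.

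The members and the 13 lists (103 genes) were chosen with earlier results of these data known. Named are the members, listed genes past the threshold in any comparison or else up to 3 per list with the smallest p, Tcf3, Tcf4, Tcf12 and Prdm8, genes with counts within 100 kb of an Olig gene, and the 3 genes most like each member. Other genes named (Sox10, Neurod1, Mobp, Cldn11, Gm14343, Grik1, Vsx1, Gad2, Th, Pax6, Tfap2b, Apoe, Glul, and markers at 0) were chosen after their values were seen. Some listed genes that fall under the rule are left out for space.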

Additional observations from a re-analysis of the deposited data

How the results depend on the processing

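Over all alternatives, 229 of 234 log2 changes of the members kept their sign. The 5 that reversed were all of Bhlhe22: against GFP with Olig3, 0.31 without Olig3 libraries 1 and 3, and for Olig3 against Olig2, 0.50 without Olig2 library 2, 0.31 without Olig3 library 1, 0.31 without Olig3 library 3 and 1.33 without both; leaving out 1 library, the latter ran from -8.38 to 0.50. Olig2 passed the threshold against GFP in its own group with no filter (9.48, edgeR adjusted p = 0.00228), with DESeq2 (9.13, adjusted p = 0.000178) and without Olig3 libraries 1 and 3 (9.46, edgeR adjusted p = 0.0363). Olig3 passed against GFP in its own group with no filter (4.27, edgeR adjusted p = 5.83e-05) and with DESeq2 (4.26, adjusted p = 0.0130). Those settings gave 1 member past the threshold, as did no filter (Olig3, 5.92) and DESeq2 (Olig3, 5.92) for Olig3 against Olig2. Leaving out 1 library, these changes ran from 9.03 to 9.97 for Olig2 (edgeR adjusted p 0.0976 to 1.00) and from 3.46 to 5.60 for Olig3 (edgeR adjusted p 0.113 to 0.453), with 0 members past the threshold.

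Listed genes past the threshold for Olig2 against GFP (2) numbered 21 with no filter, 12 with DESeq2, 4 in the fit of the pair, 4 with the replicate block, 0 without the 3 libraries richest in Malat1, 6 without Olig3 libraries 1 and 3 and 0 on library totals. For Olig3 against GFP (4) they numbered 27, 17, 0, 0, 2, 0 and 1 in the same order. For Olig3 against Olig2 (0) there were 7 with no filter and 4 with DESeq2. Leaving out 1 library gave 0 to 5, 0 to 10 and 0 to 1. The first was 0 without GFP library 1, GFP library 3 or Olig2 library 1 and 5 without Olig3 library 3; the second was 0 in each of these fits except without Olig3 library 2 (10); the third was 1 without GFP library 1, GFP library 2 or Olig3 library 2. The cause was not tested.

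Libraries share only a replicate number: same-numbered libraries deviated with r from -0.06 to 0.11, and 3 of 9 lay closest to their own number. With the replicate block, Olig2 against GFP was 9.54 (edgeR adjusted p = 0.537) and Olig3 against GFP 4.46 (edgeR adjusted p = 0.277), and genes past the threshold went from 8 to 10, 32 to 0 and 6 to 8. On library totals the median log2 change of all genes was -0.36, -0.30 and 0.06. Olig2 could not be fitted at 10 CPM in 3 libraries, Olig3 (Olig2 against GFP) and Olig2 (Olig3 against GFP) in the fits of the pair, nor Bhlhe22 (Olig3 against Olig2) without the Malat1-rich libraries. The level of Olig1 cannot be set apart from 0, and the reason was not tested.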
